A study of Mus musculus with 24 samples.

Results

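The potassium channel genes were taken as the protein-coding mouse genes whose symbol begins with Kcn and that reached at least 10 counts in a tumor. Of 94 such genes in the table of 53465 genes, 69 met the count minimum, 25 did not, and 2 of those 25 had no count in any tumor. Within the 69, a channel was called on in a tumor line at 1 CPM (count scaled by the size of the library) or more in at least 2 of the line's 3 tumors, and 7 channels were on in BURP-19NE or BURP-16SR and in none of the other 6 lines. Both steps used measured counts, so the levels of those 7 channels in those lines are given as a description, with no test.

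Potassium channels let potassium ions leave or enter a cell along their gradient, which sets the resting membrane potential and ends electrical signals. Voltage-gated channels are built from 4 pore subunits, some of which, called silent subunits, form a channel only together with a partner. Other families open on calcium or sodium, pass current mainly inward, or carry tandem pore domains and leak potassium at rest, and accessory subunits tune their gating. In epithelia and tumors the same channels act on cell volume, calcium entry and passage through the cell cycle.

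The data were RNA-sequencing counts from 24 bulk subcutaneous tumors of 8 mouse bladder tumor lines, named BURP, with 3 tumors per line. Each line began from the bladder tumor of 1 C57BL/6NTac mouse given the bladder carcinogen BBN in drinking water from 8 weeks of age, and was passed under the skin of immune-competent hosts of the same strain and sex, so all groups share the carcinogen, the strain and the site. The basal/squamous (Ba/Sq) class holds 3 male lines (BURP-18BaSq, BURP-12BaSq, BURP-17BaSq) and 3 female lines (BURP-25BaSq, BURP-21BaSq, BURP-24BaSq). BURP-16SR (male) is classed as stroma-rich and BURP-19NE (male) as neuroendocrine-like. In the paper, however, 1 of the 3 BURP-16SR tumors correlated highly with the neuroendocrine-like class, and the line was also summed up under both names. Tumors are numbered 1 to 3 within a line only to name them, and a difference from BURP-16SR or BURP-19NE is a difference from 1 donor mouse. The labels give a passage for 7 tumors, from 2 to 5. In BURP-16SR only tumor 3 has one, passage 5, and the part of passage in its levels was not tested. Fewer cells of a type and less RNA per cell cannot be told apart in bulk tumors.

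Totals ran from 9295747 to 25370356 counts per tumor, and 3 counts, used as the floor of a library, stood for 0.106 to 0.412 CPM in 23 tumors and 1.34 CPM in BURP-25BaSq tumor 2, where protein-coding genes held 17.3% of counts against 51.2% to 81.4% elsewhere. The library labelled BURP-25BaSq tumor 3 was closer to BURP-21BaSq (Pearson r = 0.979 across 21545 genes, which are not independent replicates) than to the other tumors labelled BURP-25BaSq (r = 0.91), so its label is in doubt. Summed over 7 basal and squamous markers, the Ba/Sq tumors held 8713 to 22091 CPM, BURP-16SR 0.232 to 1.27 CPM and BURP-19NE 0.791 to 2.32 CPM. The neuroendocrine markers of BURP-19NE summed to 2.44 to 6.38 CPM, with Neurod1 and Insm1 at 0 and Syp at 0.253 to 0.545 CPM. The sum was 2.97 to 26.0 CPM in BURP-16SR and 0.333 to 20.1 CPM in Ba/Sq (median 1.17). Against Ba/Sq, 1 of 4 markers tested was called higher in BURP-19NE and 1 of 3 in BURP-16SR. The paper reported high synaptophysin protein by staining in both lines. All CPM values were scaled between libraries by the trimmed mean of M-values (TMM).

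The promoters of the 3 channels with the highest levels among those on in BURP-16SR only, and of the channel on in BURP-19NE only, are shown because the description below turns on these genes. They come from RefSeq (GRCm38.p6), run from 250 bases before to 50 bases after an annotated start, and are written on the gene's strand with matches to 4 motifs, or to their reverse complements, in capitals. The motifs were the GC box (GGGCGG), the TATA box (TATAAA), the E2 box (CACCTG) and the core of the REST element (GGACAGC). Kcnf1 (chr12:17176839-17177138, minus strand), Kcnj12 (chr11:61065554-61065853, plus strand) and Kcnh2 (chr5:24329542-24329841, minus strand) were on in BURP-16SR, and Kcnh7 (chr2:63184238-63184537, minus strand) in BURP-19NE.
Kcnf1: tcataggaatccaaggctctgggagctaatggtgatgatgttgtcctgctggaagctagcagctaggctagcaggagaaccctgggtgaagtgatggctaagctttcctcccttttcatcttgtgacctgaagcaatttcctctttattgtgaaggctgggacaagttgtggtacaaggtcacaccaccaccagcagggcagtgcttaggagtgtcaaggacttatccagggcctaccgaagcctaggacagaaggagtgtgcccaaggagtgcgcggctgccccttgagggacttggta
Kcnj12: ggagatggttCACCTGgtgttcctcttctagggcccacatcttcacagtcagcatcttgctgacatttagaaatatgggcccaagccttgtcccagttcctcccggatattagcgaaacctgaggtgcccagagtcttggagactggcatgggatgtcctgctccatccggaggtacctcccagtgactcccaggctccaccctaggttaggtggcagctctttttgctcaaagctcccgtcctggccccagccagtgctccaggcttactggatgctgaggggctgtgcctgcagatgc
Kcnh2: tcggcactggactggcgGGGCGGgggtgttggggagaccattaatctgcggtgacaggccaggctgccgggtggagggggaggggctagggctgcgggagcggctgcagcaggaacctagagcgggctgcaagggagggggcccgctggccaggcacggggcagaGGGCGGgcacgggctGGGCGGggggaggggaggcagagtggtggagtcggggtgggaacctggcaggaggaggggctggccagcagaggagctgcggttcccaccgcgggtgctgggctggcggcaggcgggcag
Kcnh7: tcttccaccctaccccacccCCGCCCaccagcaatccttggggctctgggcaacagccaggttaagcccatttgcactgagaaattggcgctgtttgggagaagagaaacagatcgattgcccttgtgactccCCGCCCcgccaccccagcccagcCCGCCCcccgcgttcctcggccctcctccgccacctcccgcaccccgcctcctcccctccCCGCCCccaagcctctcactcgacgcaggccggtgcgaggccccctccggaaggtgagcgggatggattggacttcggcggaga

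The Kcnf1 window held none of the 4 motifs, the Kcnj12 window held 1 E2 box, the Kcnh2 window held 3 GC boxes and the Kcnh7 window held 4 GC boxes, so none of these windows held more than 1 kind of motif. The starts used for Kcnj12 and Kcnh2 lie inside the annotated genes (chr11:61022564-61071131 and chr5:24319589-24351604). RefSeq promoters were matched for 51 of the 69 members (70 windows). GC boxes were found in 45.7% of member windows and 35.7% of all 32851 windows, TATA boxes in 5.71% and 13.6%, E2 boxes in 25.7% and 20.2%, and REST cores in 10% and 6.56%. Rest, the repressor that binds the REST element, was at 86.8 to 159 CPM in all 24 tumors.

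BURP-16SR had the most channels on, 34 of 69 (49.3%), followed by BURP-24BaSq with 31 (44.9%), while BURP-12BaSq had 20 (29.0%) and BURP-19NE 23 (33.3%). The share of all genes on in each line is not given here. The counts in this paragraph are therefore a description, and nothing particular to channels is read from them. On in all 8 lines were 10 members, Kcnn4, Kcnk5, Kcnk6, Kcnj2, Kcnj13, Kcnq5, Kcnab1, Kcnab2, Kcnip4 and Kcnrg. Another 19 members were on in no line, 13 were on in 1 line, and 27 were on in 2 to 7 lines. By family, 15 of 22 voltage-gated pore subunits, all 6 silent subunits, 7 of 10 accessory subunits, 7 of 11 calcium- and sodium-activated channels, 8 of 11 inward rectifiers and 7 of 9 tandem-pore (K2P) channels were on in at least 1 line.

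**Figure D1:**
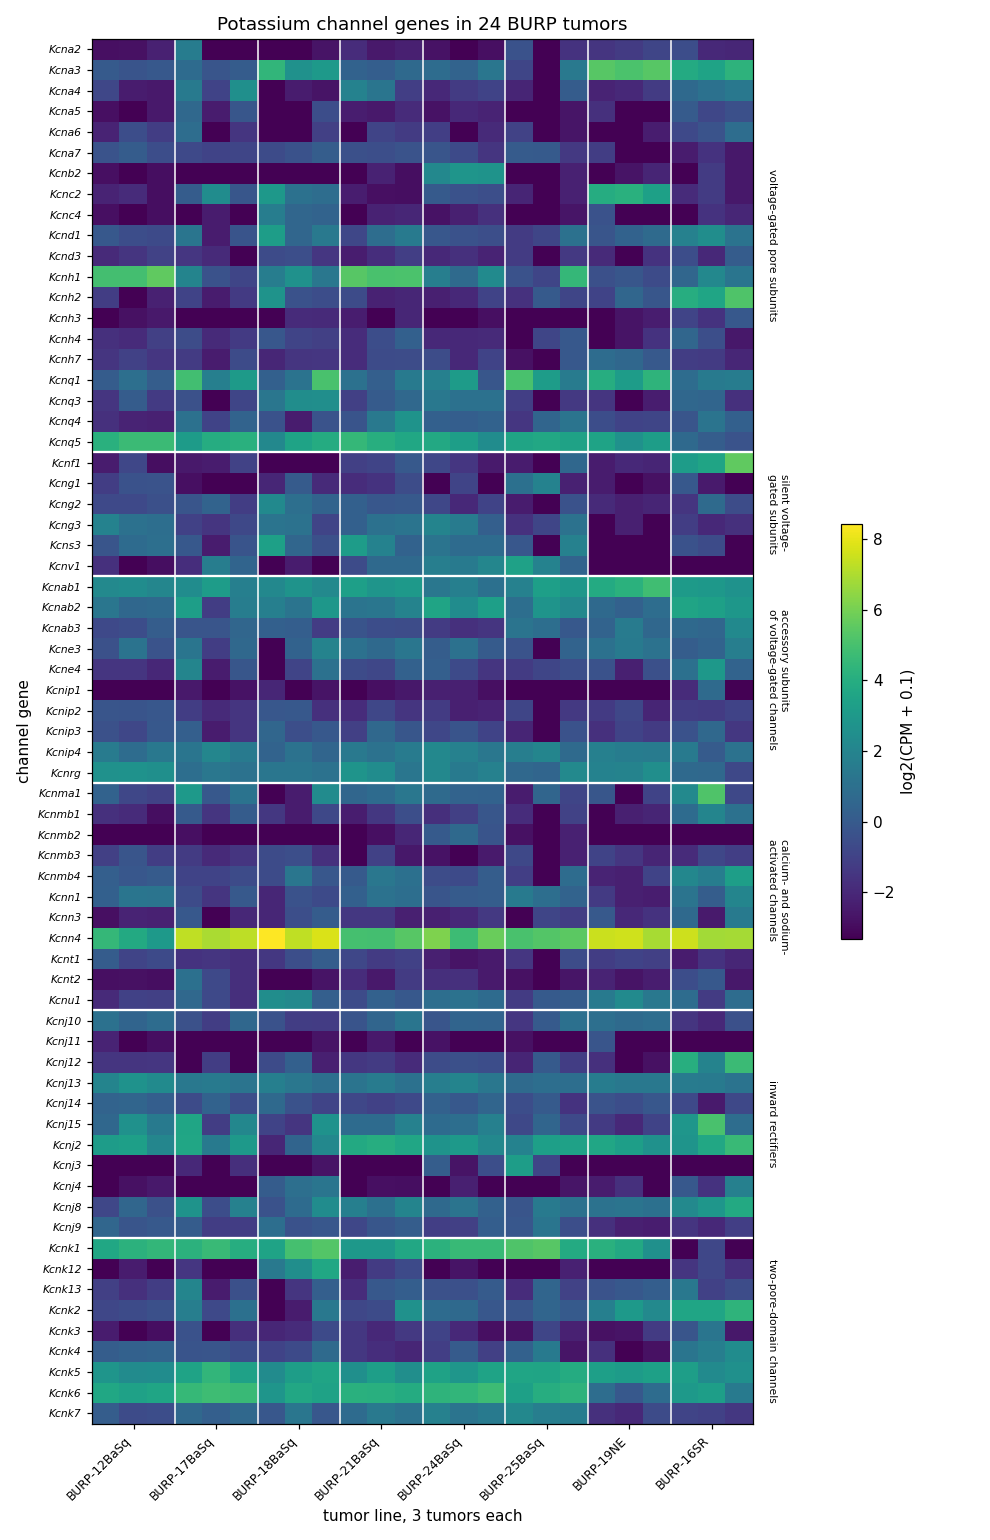
Level of the potassium channel genes reported here (rows, grouped by family) in each of the 24 tumors (columns, grouped by line), as log2 of CPM plus 0.1. Kcnn4 has the highest mean over the Ba/Sq tumors, although Kcnh1 lies above it in the BURP-12BaSq tumors. Kcnf1, Kcnj12 and Kcnh2 are high in the 3 BURP-16SR tumors.

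Per kilobase of exon, the highest mean level over the 18 Ba/Sq tumors was that of Kcnn4, the intermediate-conductance calcium-activated channel, at 17.1 CPM per kb. The leak channels Kcnk1 (9.51), Kcnk6 (4.08) and Kcnk5 (2.84 CPM per kb) came next, followed by the inward rectifier Kcnj13 (2.26) and the voltage-gated Kcnh1 (2.03 CPM per kb). On the same scale Kcnn4 stood at 32.0 CPM per kb in BURP-19NE and 27.0 in BURP-16SR. The order below it was not kept in these lines: Kcna3 was second in BURP-19NE at 20.6 CPM per kb and stood at 7.85 in BURP-16SR, where Kcnj12 (5.58), Kcnf1 (4.72) and Kcnh2 (4.46 CPM per kb) followed and Kcnk1 was at 0.0693 CPM per kb.

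Among the channels on in BURP-16SR only, Kcnf1, a silent subunit that joins Kcnb pores, had the clearest gap. It reached 9.07, 11.5 and 47.2 CPM in the 3 BURP-16SR tumors (22.6 ± 21.3, SD, n = 3), while the Ba/Sq tumors ran from 0 through a median of 0.0865 to 1.41 CPM and the BURP-19NE tumors held 0.0842, 0.158 and 0.136 CPM. All 3 BURP-16SR tumors lay above every other tumor, and the fitted difference from Ba/Sq was 6.23 ± 0.70 on the log2 scale (± SE). Its possible partner Kcnb2 was at 0, 0.31 and 0.0699 CPM in the same tumors.

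Kcnj12, an inward rectifier of muscle and heart, was at 16.4, 3.79 and 25.8 CPM in BURP-16SR (15.3 ± 11, SD, n = 3) and at 0 to 1.12 CPM in Ba/Sq (median 0.292), a log2 difference of 5.49 ± 0.59. Kcnh2, the hERG channel that repolarises the heart, was at 16, 12 and 36.8 CPM (21.6 ± 13.3, SD, n = 3) against 0 to 6.59 CPM (median 0.315), a log2 difference of 5.21 ± 0.81. For both genes the groups did not overlap, and the one Ba/Sq tumor above 1 CPM of Kcnh2 was BURP-18BaSq tumor 1. For Kcnf1, Kcnj12 and Kcnh2 alike, BURP-16SR tumor 3 was the highest.

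The other 3 channels on in BURP-16SR only lay nearer to the threshold. Kcnmb1, the smooth muscle accessory subunit of the large-conductance calcium-activated (BK) channel, was at 1.61, 3.95 and 1.96 CPM against a Ba/Sq maximum of 0.986 CPM (log2 difference 2.81 ± 0.55). Kcne4, which restrains Kcnq1 and Kcna3 channels, was at 1.95, 7.59 and 1.26 CPM and overlapped with Ba/Sq, where BURP-17BaSq tumor 1 held 3.99 CPM (2.31 ± 0.74). Kcnn3, a small-conductance calcium-activated channel, was at 1.53, 0.0774 and 2.73 CPM against a maximum of 0.962 CPM (2.44 ± 0.76), so 1 of its 3 tumors lay inside the Ba/Sq range. The 8 smooth muscle markers summed to 145 to 379 CPM in BURP-16SR, highest in tumor 2, and to 66.5 to 211 CPM in Ba/Sq (median 126), with 3 of the 8 called higher, and their part in the Kcnmb1 level was not tested.

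Kcnh7, a relative of hERG found mainly in neurons, was the channel on in BURP-19NE only, at 1.68, 1.42 and 0.862 CPM (1.32 ± 0.42, SD, n = 3). The Ba/Sq tumors ran from 0 through a median of 0.263 to 0.844 CPM and BURP-16SR held 0.339, 0.31 and 0.14 CPM. The lowest BURP-19NE tumor was 0.862 CPM and the highest Ba/Sq tumor 0.844 CPM, and the fitted difference was 1.96 ± 0.48 on the log2 scale.

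**Figure D2:**
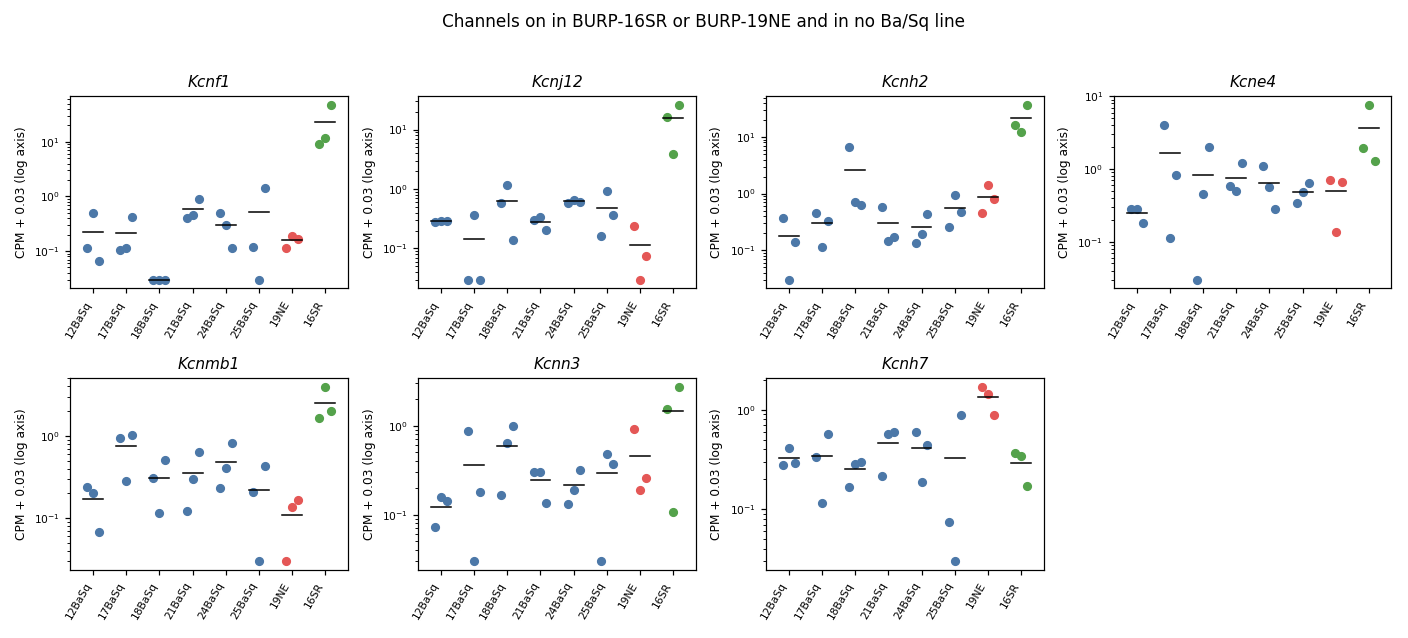
CPM of the 7 channels on in BURP-16SR or BURP-19NE only, 1 point per tumor and a line at each mean, on a log axis with 0.03 CPM added. Kcnf1, Kcnj12 and Kcnh2 stand above every other tumor in BURP-16SR, whereas Kcnh7 reaches only 0.862 to 1.68 CPM in BURP-19NE.

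The set depended on where the line was drawn. Just inside the threshold, by the median of the line's tumors, were Kcnh7 (1.42 CPM), Kcnn3 (1.53), Kcne4 (1.95) and Kcnmb1 (1.96 CPM). Just outside were Kcnk13 (0.843), Kcnk3 (0.763), Kcna6 (0.697) and Kcnip3 (0.678 CPM), which missed 1 CPM in both lines, and Kcnk4, Kcnj10 and Kcnab3, which passed it there but had a Ba/Sq line at a median of 1.16 to 1.79 CPM. For the count minimum, Kcnh3 (12 counts in its highest tumor), Kcnd3 (14), Kcnmb3 and Kcnj11 (18 each) were just inside, and Kcna1 and Kcnv2 (9 each), Kcnk18 and Kcns1 (8 each) just outside. At 0.5 CPM 3 channels were on only in these lines, and 1 of them was among the 7 of the main rule. At 2 CPM there were 7, of which 3 were among the main 7. With all 3 tumors required there were 10, and with CPM taken over protein-coding genes 7, each sharing 5 with the main 7. Kcnf1 was the single channel found under all 5 definitions tried. Leaving out BURP-16SR tumor 1 or tumor 3 removed Kcnn3, and leaving out BURP-19NE tumor 1 or tumor 2 removed Kcnh7. In all, 3 members passed 10 counts only in these lines: Kcnh3 and Kcnip1 in BURP-16SR and Kcnj11 in BURP-19NE.

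In BURP-19NE against the 18 Ba/Sq tumors, the voltage-gated Kcna3 and Kcnc2 and the accessory Kcnab1 were higher, and the leak channel Kcnk6 was lower. Of 61 members tested, 5 were called higher and 15 lower by edgeR's quasi-likelihood test (adjusted p under 0.05 and a fold over 2), where 9.33% of all 20995 genes tested were higher and 15.0% lower. The median log2 difference was -0.99 over the members and -0.14 over all genes. Because the rule used this contrast, the counts stand beside the background only as a description. The number lower was 9 without BURP-19NE tumor 1, 7 without tumor 2 and 9 without tumor 3. The Ba/Sq tumors also served as controls for BURP-16SR.

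Kcna3, the Kv1.3 channel best known from T cells, was at 41.3, 34.9 and 41.4 CPM in BURP-19NE (39.2 ± 3.73, SD, n = 3) against 0, 1.21 and 21.6 CPM (lowest, median, highest) in Ba/Sq. The difference was 3.76 ± 0.74 on the log2 scale (adjusted p = 0.000523, edgeR), and no Ba/Sq tumor reached the BURP-19NE tumors. The 5 T-cell markers summed to 0.58 to 3.95 CPM in BURP-19NE, to 21.1, 24.4 and 0.21 CPM in the BURP-16SR tumors and to 0.42 to 14.8 CPM in Ba/Sq, and their part in the Kcna3 level was not tested. BURP-18BaSq held the highest Ba/Sq levels, 21.6, 6.09 and 7.91 CPM. BURP-16SR held 14.4, 11.1 and 19.2 CPM, 2.40 ± 0.80 above Ba/Sq on the log2 scale (adjusted p = 0.0311, edgeR), a call lost without any one of its tumors (adjusted p = 0.0605 to 0.139).

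Kcnc2, a fast Kv3 channel of neurons, was at 15.6, 17.6 and 10.3 CPM in BURP-19NE against 0, 0.395 and 7.55 CPM in Ba/Sq (log2 difference 3.69 ± 0.93, adjusted p = 0.00431, edgeR). BURP-16SR was at 0.17, 0.31 and 0.0699 CPM, inside the Ba/Sq range. Kcnab1, an accessory subunit of Kv1 channels such as Kcna3, was at 14.3, 17.9 and 28.1 CPM against 1.9, 4.87 and 9.85 CPM (1.90 ± 0.34, adjusted p = 0.000211, edgeR). All 3 BURP-19NE tumors lay above the Ba/Sq range for Kcnc2 and Kcnab1.

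Kcnk6, a leak channel, fell to 1.73, 0.843 and 1.68 CPM from 7.0, 16.5 and 27.9 CPM (-3.54 ± 0.44, adjusted p = 2.7e-06, edgeR). Kcnk7, a K2P subunit that gives no current on its own (-2.63 ± 0.66, adjusted p = 0.00438), and Kcnj9, a G-protein-gated rectifier (-2.53 ± 0.60, adjusted p = 0.00268, both edgeR), were also lower, with no overlap between groups.

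Of the 6 silent subunits, 4 were called lower in BURP-19NE, beside 15.0% of all genes, and over all members the number lower was 7 to 9 without any one of its tumors. Kcng3, Kcns3 and Kcnv1 reached the minimum of 10 counts in Ba/Sq tumors only. The count minimum thus favored a lower level in BURP-19NE, so the number of silent subunits called and the levels below are a description. Kcng3 had 2 counts there, 52.4-fold under the Ba/Sq mean of 1.62 CPM (14.5 to 433, counting error). For genes with no count, the floor was 3 counts in each library, averaged as CPM over the line's tumors (0.14 CPM in BURP-19NE). Kcns3 had no count, at least 16.5-fold lower than the Ba/Sq mean, although 1 Ba/Sq tumor was also at 0. Kcnv1 had none, at least 13.3-fold lower, with 3 Ba/Sq tumors at 0 as well. BURP-16SR shared the loss of Kcnv1 (no count, at least 8.04-fold lower) but held Kcns3 at 0.678, 0.542 and 0 CPM.

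In BURP-16SR against Ba/Sq, the stretch-sensitive leak channel Kcnk2 and the BK subunit Kcnmb4 were higher and the leak channel Kcnk1 and the M-type channel Kcnq5 were lower. Of 62 members tested, 15 were called higher and 9 lower, where 10.5% of all 21028 genes were higher and 8.62% lower. Of the 15 higher, 6 were the channels chosen for being on in this line only, and nothing is read from the counts. The number lower was 4 without BURP-16SR tumor 1, 5 without tumor 2 and 3 without tumor 3.

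Kcnk1, the highest leak channel of the Ba/Sq lines, was at 0, 0.464 and 0 CPM in BURP-16SR against 7.62, 19.0 and 41.2 CPM in Ba/Sq. The difference was -6.96 ± 0.89 on the log2 scale (adjusted p = 5.38e-06, edgeR), and BURP-19NE, with 17.4, 13.7 and 5.81 CPM, lay largely inside the Ba/Sq range. Kcnq5 was at 1.53, 1.01 and 0.699 CPM against 4.39, 13.3 and 26.2 CPM (-3.64 ± 0.52, adjusted p = 2.4e-05, edgeR), and BURP-19NE again overlapped with Ba/Sq at 11.1, 6.11 and 9.3 CPM. Both genes separated BURP-16SR from every other line.

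Kcnk2 was at 12.1, 12 and 20 CPM in BURP-16SR against 0, 0.792 and 6.09 CPM in Ba/Sq (3.49 ± 0.65, adjusted p = 0.000426, edgeR). BURP-19NE lay between, at 3.24, 7.85 and 4.58 CPM, and its own call against Ba/Sq (1.95 ± 0.71, adjusted p = 0.0387) was lost without any one of its tumors (adjusted p = 0.0613 to 0.225). Kcnk7 was lower in BURP-16SR too (-2.34 ± 0.64, adjusted p = 0.0105, edgeR), although without BURP-16SR tumor 3 its adjusted p was 0.052. Kcna7, a Kv1 channel, was at 0.0848, 0.232 and 0.0699 CPM against 0.248, 0.631 and 1.02 CPM (-2.17 ± 0.50, adjusted p = 0.00314, edgeR). These BURP-16SR levels were 1, 3 and 1 counts, at or under the floor of 3 counts, and BURP-19NE held 0.337, 0 and 0 CPM.

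**Figure D3:**
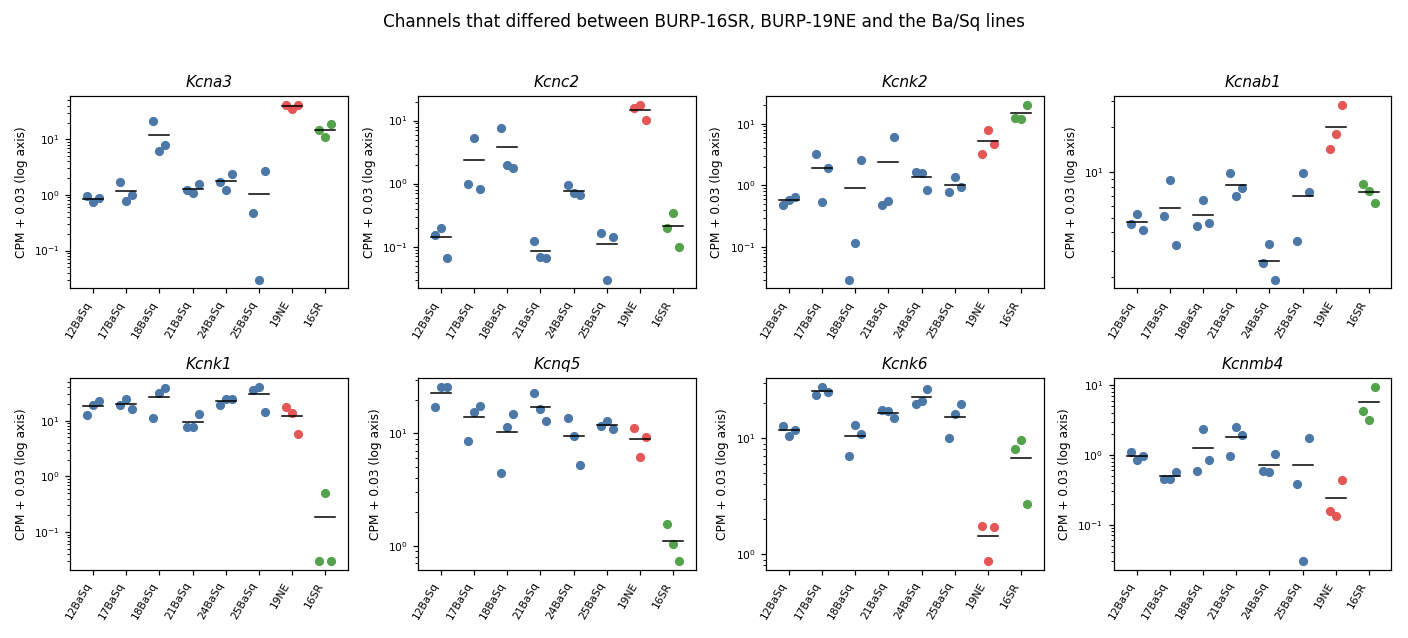
CPM of 8 channels in every tumor on a log axis with 0.03 CPM added, with points for tumors and a line at each line's mean. Kcna3, Kcnc2 and Kcnab1 are highest in BURP-19NE and Kcnk2 and Kcnmb4 in BURP-16SR, while Kcnk1 and Kcnq5 are lowest in BURP-16SR and Kcnk6 in BURP-19NE.

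The BK complex moved unevenly across the BURP-16SR tumors. Its pore Kcnma1 was at 4.49, 36.7 and 0.49 CPM, so tumor 2 stood high and tumor 3 lay inside the Ba/Sq range of 0 to 8.05 CPM. The call against Ba/Sq (3.14 ± 0.84, adjusted p = 0.00925, edgeR) was lost without tumor 2 (0.67, adjusted p = 0.73). Kcnmb4, the neuronal BK accessory subunit, was high in every tumor instead, at 4.24, 3.1 and 9.51 CPM against 0, 0.804 and 2.47 CPM (2.56 ± 0.49, adjusted p = 0.000554, edgeR). Lrrc26, a BK subunit of secretory epithelia that lets the channel open at rest, ran from 0.137 through 4.04 to 36.0 CPM in Ba/Sq. It had 1 count each in BURP-16SR (283-fold under the Ba/Sq mean of 7.25 CPM, counting interval 50.7 to 11165) and BURP-19NE (469-fold, 84.2 to 18534).

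The fibroblast markers, 6 collagen and matrix genes with Pdgfra among them, summed to 7385, 19880 and 556 CPM in the BURP-16SR tumors, to 1166 to 1885 CPM in BURP-19NE and to 201 to 9732 CPM in Ba/Sq (median 1090). Kcnma1, Kcnj15 (7.21, 33.4 and 1.75 CPM) and Kcne4 (1.95, 7.59 and 1.26 CPM) were highest in BURP-16SR tumor 2, as was that sum, and within Ba/Sq all 3 genes were highest in BURP-17BaSq tumor 1 (8.05, 12.1 and 3.99 CPM), where the sum was 9732 CPM. Kcnf1, Kcnj12 and Kcnh2 were highest in BURP-16SR tumor 3, where the sum was 556 CPM, below the Ba/Sq median. The pericyte sum followed the same order in BURP-16SR (271, 424 and 86.4 CPM), and the part of either cell type in these levels was not tested.

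**Figure D4:**
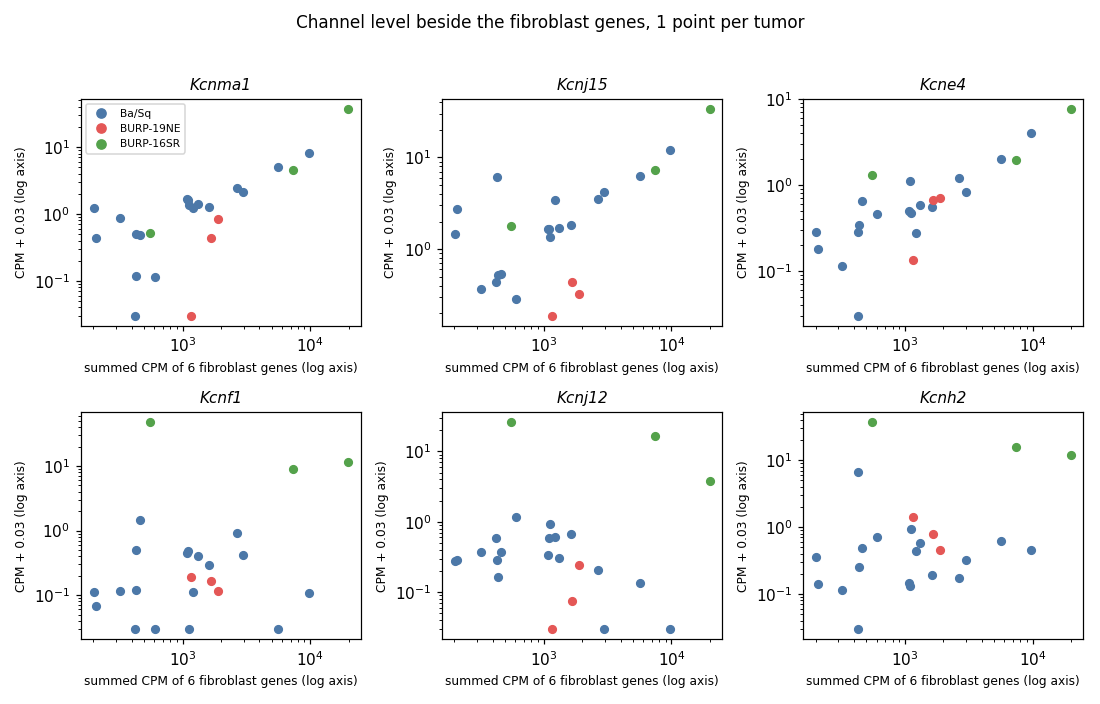
CPM of 6 channels against the summed CPM of the 6 fibroblast markers, 1 point per tumor, both on log axes with 0.03 CPM added to the channels. Kcnma1, Kcnj15 and Kcne4 are highest in BURP-16SR tumor 2, with the highest sum of 19880 CPM, and Kcnf1, Kcnj12 and Kcnh2 in tumor 3, with a sum of 556 CPM.

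Among the inward rectifiers, Kcnj8, the pore of vascular ATP-sensitive channels, was at 4.58, 7.2 and 14 CPM in BURP-16SR against 0.459, 1.78 and 6.4 CPM in Ba/Sq (2.0 ± 0.55, adjusted p = 0.0102, edgeR), with an adjusted p of 0.157 without tumor 3. Its regulatory subunit Abcc9 was at 18.3, 40.5 and 35.2 CPM against 3.54, 9.17 and 29.6 CPM (1.71 ± 0.43, adjusted p = 0.00604, edgeR), with an adjusted p of 0.0575 without tumor 2. The 6 endothelial markers summed to 185, 325 and 213 CPM in BURP-16SR and to 31.2 to 331 CPM in Ba/Sq (median 73.4), with 4 of the 6 called higher, and their part in the Kcnj8 and Abcc9 levels was not tested. The pancreatic and muscle counterpart Kcnj11 was counted in a single tumor above 10 counts, BURP-19NE tumor 1 (0.758 CPM), and was at 0 in the other BURP-19NE tumors. The same tumor held 624 CPM of 8 skeletal muscle markers, against 4.37 and 7.72 CPM in the others of its line, and the part of muscle in its Kcnj11 was not tested.

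BURP-16SR and BURP-19NE were also compared with each other. Of 39 members tested, 17 were higher and 9 lower in BURP-16SR, where 14.8% of all 17556 genes were higher and 8.86% lower. Of these, 5 of the higher and 1 of the lower were channels chosen for being on in 1 of these lines. The number higher was 10 without BURP-19NE tumor 1 and 11 without tumor 3.

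The widest gaps upward outside that choice were in Kcnj15, an inward rectifier of kidney and secretory epithelia (5.68 ± 1.20, adjusted p = 0.0134), and Kcnk4, a stretch- and heat-sensitive leak channel (5.27 ± 0.80, adjusted p = 0.00445, both edgeR). The Kcnj15 call was lost without BURP-19NE tumor 1, 2 or 3 (adjusted p = 0.0623, 0.0615 and 0.0517). Downward they were Kcnc2 (-6.17 ± 0.51, adjusted p = 0.000881), Kcnk1 (-6.15 ± 1.08, adjusted p = 0.00711) and Kcnq5 (-2.94 ± 0.41, adjusted p = 0.00349, all edgeR). The tumors of the 2 lines did not overlap for any of these 5 genes.

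Kcnq1, the epithelial and cardiac channel that works with Kcne subunits, was at 1.7, 2.79 and 2.94 CPM in BURP-16SR and 15.8, 9.01 and 19.7 CPM in BURP-19NE (-2.49 ± 0.38, adjusted p = 0.00441, edgeR), with an adjusted p of 0.0773 when all 24 tumors were fitted together. Within Ba/Sq it ran from 0.786 to 33.5 CPM. Its partner Kcne3 was at 1.02, 1.24 and 3.15 CPM in BURP-16SR and 2.02, 2.79 and 2.09 CPM in BURP-19NE, so the lines overlapped. The antisense transcript Kcnq1ot1 (chr7:143203458-143296549) lies across Kcnq1 (chr7:143106362-143427042) and was at 231, 268 and 164 CPM in BURP-16SR and 166, 78.7 and 181 CPM in BURP-19NE. Whether the counting used the strand is not given in the sources used here, and if it did not, reads of the overlap cannot be told apart.

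Kcnj13 and Kcnk5, which were on in all lines, differed from Ba/Sq by -0.09 and -0.43 on the log2 scale in BURP-16SR and by -0.09 and 0.01 in BURP-19NE, with adjusted p from 0.434 to 0.982 (edgeR). The A-type pore Kcnd1 was at 3.48, 5.34 and 2.1 CPM in BURP-16SR and 0.758, 1.21 and 1.59 CPM in BURP-19NE (1.71 ± 0.48, adjusted p = 0.033, edgeR). Its accessory subunit Kcnip4 was at 0.929 to 2.71 CPM and 2.86 to 3.33 CPM in the same tumors, Kcnip1 reached 1.55 CPM in BURP-16SR tumor 2 alone, and the partner Dpp10 had no count in either line.

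Further gaps between the 2 lines, named after their values were seen, were in Kcna4, an A-type Kv1 pore, Kcnab2, an accessory subunit, and Kcnn1, a small-conductance calcium-activated channel. Kcna4 was at 1.53, 2.01 and 2.52 CPM in BURP-16SR and 0.126, 0.158 and 0.318 CPM in BURP-19NE (3.37 ± 0.44, adjusted p = 0.00283, edgeR). Kcnab2 was at 11.6, 10.3 and 7.34 CPM against 1.52, 1.16 and 1.77 CPM (2.81 ± 0.32, adjusted p = 0.00191, edgeR). Kcnn1 was at 2.2, 1.01 and 3.99 CPM against 0.295, 0.105 and 0.0908 CPM (3.87 ± 0.68, adjusted p = 0.00728, edgeR), and no tumors of the 2 lines overlapped for these genes. Kcnu1, the sperm channel of the BK family, was at 2.74, 4.85 and 2.54 CPM in BURP-19NE and at 5.36, 4.55 and 1.07 CPM in BURP-18BaSq.

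Among the 6 Ba/Sq lines, members were chosen without comparing the lines, although a high count in 1 line was enough to make a gene a member. Of 59 members tested, 29 differed between lines, where 39.4% of all 20523 genes differed, and 2 of the 29 had passed 10 counts in 1 line only. Without the library labelled BURP-25BaSq tumor 3, whose label is in doubt, 37 differed. Of all members, 6 were on in 1 Ba/Sq line and in no other line: Kcnb2, Kcnc4, Kcng1, Kcng2, Kcnj4 and Kcnk12. Their levels picked these 6, so their differences between lines are a description.

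BURP-24BaSq alone held Kcnb2, a delayed rectifier of neurons, at 4.33, 6.94 and 6.57 CPM. It carried 97.9% of the gene's Ba/Sq counts. The same line had the BK accessory subunit Kcnmb2 at 0.917, 1.54 and 0.744 CPM. Both genes are members only through this line, with at most 4 counts in any tumor of the others, so their differences are given with no test. The female lines BURP-21BaSq and BURP-25BaSq lacked this pattern, with Kcnb2 at 0 to 0.116 CPM.

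BURP-18BaSq held 3 others. Kcnk12, a silent K2P channel, was at 2.61, 5.58 and 12.6 CPM there and at 0 to 0.531 CPM in the other Ba/Sq tumors. Kcnj4, an inward rectifier of brain and heart, was at 0.961, 1.89 and 2.3 CPM, and Kcnc4, a Kv3 channel, at 3.02, 1.37 and 1.23 CPM. Fitted ranges from the lowest Ba/Sq line, at or near 0 CPM, were 8.27, 8.06 and 6.22 on the log2 scale, with no test. Outside Ba/Sq, BURP-16SR held Kcnj4 at 0.848, 0.232 and 3.36 CPM, the last above every BURP-18BaSq tumor. Each of the 3 BURP-18BaSq tumors lay above all other Ba/Sq tumors for these genes.

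In BURP-25BaSq, 3 counts stood for 1.34 CPM in tumor 2, and tumor 3 is the library whose label is in doubt. Kcnj3, a G-protein-gated rectifier, was at 9.35, 0.448 and 0 CPM (210, 1 and 0 counts), so its level there rests on tumor 1. It reached 10 counts only in this line and BURP-24BaSq. Its fitted log2 range between lines, 9.07, is therefore given as a description with no test. Kcng1, a silent subunit, was at 1.91, 3.58 and 0.112 CPM, a fitted log2 range between lines of 6.11, given as a description with no test. It fell short of the threshold in 13 of the fits that left out 1 tumor of any Ba/Sq line. Kcnv1, a silent subunit of neurons, was at 10.4, 3.58 and 1.24 CPM there and at 3.16, 2.65 and 4.13 CPM in BURP-24BaSq, against 0 to 0.208 CPM in BURP-12BaSq (7.26, adjusted p = 0.00192, edgeR).

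Kcnn4, which drives calcium entry and proliferation in many cells, was at 347, 158 and 218 CPM in BURP-18BaSq and 161, 124 and 155 CPM in BURP-17BaSq. BURP-12BaSq was lowest at 22.6, 14 and 8.03 CPM, below every other tumor of the series, and the range between lines was 4.03 on the log2 scale (adjusted p = 4.23e-05, edgeR). In Kcnh1, the Eag channel expressed in brain and many tumors, BURP-12BaSq held 30.5, 29.9 and 47.3 CPM and BURP-21BaSq 42.0, 33.8 and 34.5 CPM, against 3.83, 0.672 and 0.444 CPM in BURP-17BaSq (4.41, adjusted p = 0.0063, edgeR). In BURP-25BaSq, Kcnh1 was at 0.668, 0.448 and 22.8 CPM, the last being the library whose label is in doubt.

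**Figure D5:**
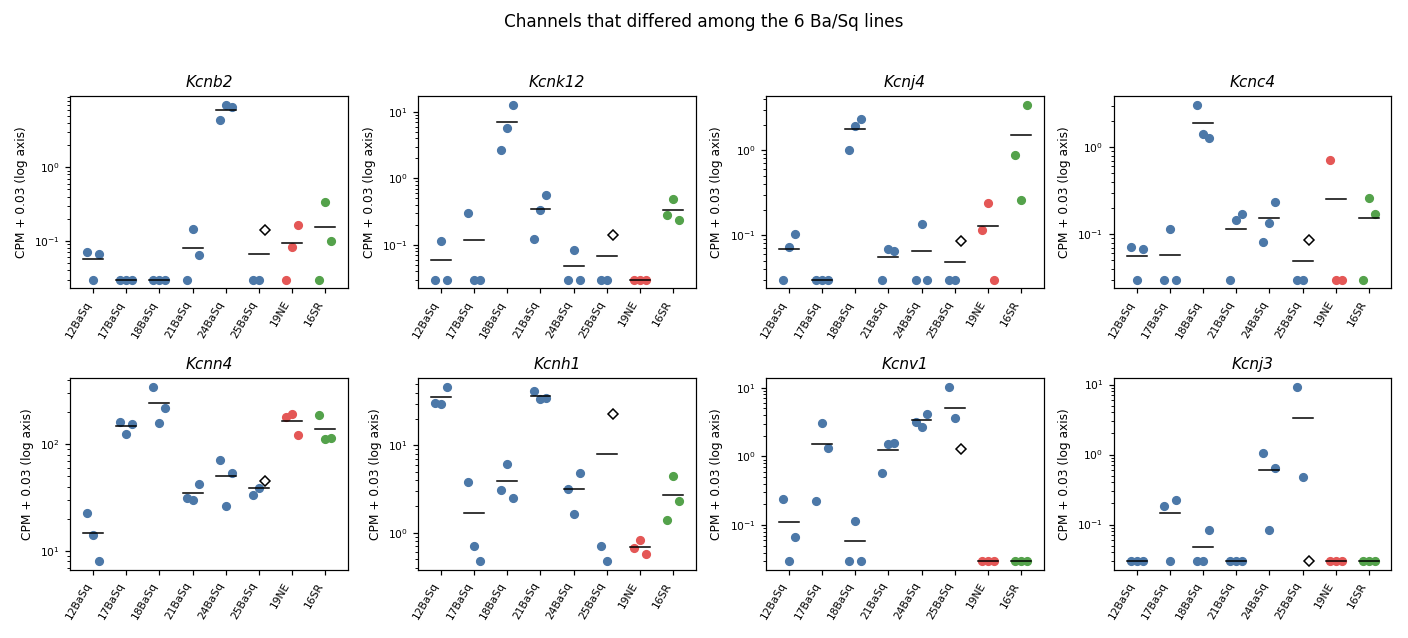
CPM of 8 channels that varied among the 6 Ba/Sq lines, 1 point per tumor on a log axis with 0.03 CPM added, with a line at each mean and an open diamond for the library labelled BURP-25BaSq tumor 3. Kcnb2 is high in BURP-24BaSq alone (4.33 to 6.94 CPM), Kcnk12, Kcnj4 and Kcnc4 are highest among Ba/Sq tumors in BURP-18BaSq, and the diamond for Kcnh1 (22.8 CPM) lies near BURP-21BaSq.

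Between male and female Ba/Sq lines, with the 3 tumors of a line summed so that the line is the replicate (3 against 3), none of 57 members was called by edgeR, where 0.0% of all 21658 genes were higher and 0.0% lower. At an unadjusted p under 0.05 there were 2, and DESeq2 and limma-voom also called 0 members. Over all genes DESeq2 called 73 higher and 159 lower in males, and limma-voom 0. Kcnk7 had line means of 0.715, 1.34 and 1.31 CPM in male lines and 2.12, 2.83 and 3.49 CPM in female lines, which did not overlap (-1.39 ± 0.43 on the log2 scale, unadjusted p = 0.0136, adjusted p = 0.716, edgeR). Kcnv1 was at 0.537 CPM on average in male and 3.2 CPM in female lines (-3.11 ± 1.26, adjusted p = 0.772, edgeR), but the male BURP-17BaSq (1.5 CPM) lay above the female BURP-21BaSq (1.19 CPM).

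With the 18 tumors taken as replicates, which treats tumors of 1 donor as independent, Kcnk7 was called lower in males (-1.32, adjusted p = 0.0132, edgeR), where 1.09% of all 17922 genes were higher and 1.22% lower. Of 5 channels that the study listed as differing by sex, a list chosen on these samples and so no independent evidence, 4 could be tested and 0 were called by line. Kcnb2, one of the 5, was the gene of the single female line BURP-24BaSq described above.

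Among 34 other genes of potassium transport, 2 were higher and 6 lower in BURP-19NE of 28 tested, and 8 were higher and 5 lower in BURP-16SR of 29 tested. Over all genes the shares were 9.33% and 15.0% in BURP-19NE and 10.5% and 8.62% in BURP-16SR. The sodium-potassium pump regulator Fxyd3 was at or under 0.509 CPM in both lines against 10.3, 53.7 and 105 CPM in Ba/Sq, and Fxyd5 was at 68.8, 59.7 and 72.7 CPM in BURP-16SR against 4.87, 10.7 and 27.7 CPM (2.40 ± 0.40, adjusted p = 0.00016, edgeR). Slc12a2, which carries potassium with sodium and chloride, was higher in BURP-19NE at 246, 271 and 272 CPM against 24.4, 61.8 and 200 CPM (1.96 ± 0.38, adjusted p = 0.000504, edgeR). Slc12a1, the sodium-potassium-chloride transporter of the kidney, was at 2.97, 3.1 and 11.9 CPM in BURP-16SR and at most 0.0493 CPM in Ba/Sq (8.93 ± 0.50, adjusted p = 1.37e-11, edgeR).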

How the data were processed

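RNA from 24 tumors was depleted of ribosomal RNA, made into dUTP-marked libraries and sequenced by the authors, and the deposited table holds their estimated counts per gene (expected counts, not whole in 12.5% of values). The submitters' processing notes name CASAVA 1.8.2, STAR 2.6.0a and RSEM 1.3.1. The study used GENCODE M16. Of the gene IDs, 99.8% were named from GENCODE M21. Whether RSEM used the strand is not given in the sources used here.

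Counts were rounded to whole numbers and fitted across all genes with edgeR 4.0.16 (glmQLFit and glmQLFTest, TMM, filterByExpr) in R 4.3.3. A call required a fold over 2 with p, adjusted by Benjamini-Hochberg, under 0.05. Groups were compared over tumors, and the sexes over counts summed per line. The tumors of a line share 1 donor. Fits against Ba/Sq had no term for the line and took the 18 tumors of the 6 Ba/Sq lines as independent replicates. Their p-values rest on the spread between tumors, within and between Ba/Sq lines, and the line compared came from 1 donor. Between BURP-16SR and BURP-19NE, and among the Ba/Sq lines, p-values measure the spread between tumors within lines. The genes described were the 7 channels on in BURP-19NE or BURP-16SR only, in each test the 6 members with the widest change each way past the threshold and without overlap (8 by range among the Ba/Sq lines), the 10 highest members per kb in Ba/Sq, preset lists, subunits of the same channels and the members nearest the thresholds. The members and lists were chosen with earlier results of these data known. Tried as alternatives were DESeq2 1.42.0 and its size factors, other filters, all 24 tumors in 1 fit, each tumor or line left out, other thresholds for a channel being on and, with limma 3.58.1, the line as a random effect. The edgeR fits were tested on simulated data. The floor was 3 counts, and counting intervals (95%) cover counting error only. The sum of fibroblast markers includes Col1a1, Col1a2, Col3a1, Dcn, Lum and Pdgfra. Protein sequences were not used here. Some genes are not reported here, in the text or the figures, and remain in the counts.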

Additional observations from a re-analysis of the deposited data

Results flagged for a closer look

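Kcnj15, Kcnk4 and Kcnmb4 were flagged because they were called higher than Ba/Sq in BURP-16SR and lower than Ba/Sq in BURP-19NE, and the direct comparison of the 2 lines also passed the test. The log2 difference of BURP-16SR from BURP-19NE was 5.68 for Kcnj15 (adjusted p = 0.0134), 5.27 for Kcnk4 (adjusted p = 0.00445) and 4.73 for Kcnmb4 (adjusted p = 0.00388, all edgeR), and the tumors of the 2 lines did not overlap. Against the shared Ba/Sq tumors, the differences of BURP-16SR were 2.42, 2.30 and 2.56 and those of BURP-19NE -3.23, -2.96 and -2.14. For Kcnj15, BURP-16SR without tumor 2 stood 0.76 from Ba/Sq (adjusted p = 0.636). The call for BURP-19NE was lost without any one of its tumors (adjusted p = 0.0668 to 0.116), with differences of -3.58 to -2.98. The BURP-19NE call of Kcnk4 was lost without tumor 2 or 3 (adjusted p = 0.106 and 0.0961) and that of Kcnmb4 without tumor 1 or 2 (adjusted p = 0.129 and 0.134). The BURP-16SR call of Kcnk4 was lost without tumor 3 (adjusted p = 0.0704).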

How the results depend on the processing

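Of 1290 recomputed values of 60 named log2 differences, 1233 kept their side of the threshold, 56 fell short of it, 1 passed it and 0 changed direction. With all 24 tumors in 1 fit, 8 members were higher in BURP-19NE than in Ba/Sq. With at least 10 counts required in every tumor, which leaves fewer genes tested, BURP-19NE had 1 higher and 1 lower, BURP-16SR 0 higher and 2 lower, BURP-16SR against BURP-19NE 7 higher and 4 lower, and 5 members differed among the Ba/Sq lines. With the 18 tumors as replicates, 1 member was lower in males. At 0.5 CPM, 3 channels were on in BURP-19NE or BURP-16SR only. Leaving out 1 tumor gave 4 to 6 members higher and 7 to 16 lower in BURP-19NE, 10 to 16 higher and 3 to 10 lower in BURP-16SR, 10 to 20 higher and 6 to 9 lower in BURP-16SR against BURP-19NE, 25 to 38 among the Ba/Sq lines and 6 to 8 channels on in BURP-19NE or BURP-16SR only, and leaving out 1 line left 0 members by sex. Fits without BURP-25BaSq tumor 2 or tumor 3 that were chosen after seeing the data gave 0 members by sex and 37 among the lines. With no filter on low counts the median of all genes moved to -0.43 in BURP-19NE and -0.21 in BURP-16SR against Ba/Sq. Depth limits the low channels, since 3 counts stand for up to 1.34 CPM. No paired analysis was run, because the labels do not say that codes or passage numbers recurring between lines name the same animal or tumor.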
